A study of Mus musculus with 4 samples.

Results

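In all, 10 long noncoding RNA genes were followed through serial passage of hair follicle mesenchymal cells. Of these, 8 were snoRNA host genes, namely Gas5, Snhg1, Snhg3, Snhg5, Snhg6, Snhg8, Snhg12 and Snhg15. The other pair, Malat1 and Neat1, encode long noncoding RNAs that stay in the nucleus. The genes were taken by their symbols from the table of raw gene counts, so they were 10 of its 51826 genes. All 10 passed the filter on low counts, which asked for 10 or more raw counts on average in the 4 libraries, as did 16734 genes in all.

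The study asked how passage number affects the return of injected cells of the dermal papilla (DPCs) and of the dermal sheath (DSCs) to follicles. Both cell types were grown from whisker follicles of mice aged 5 to 6 weeks, on the C57BL/6J background with an EGFP transgene, and the labels give their genotype as WT. The 4 groups were DPCs at passage 3, DPCs at passage 9, DSCs at passage 3 and DSCs at passage 9, all cultured in DMEM with no further treatment named. Each group was 1 library of total RNA that was enriched with poly-T beads, and how many animals or cultures stood behind a library was not given in the sources used here. With 1 library per group, no test between groups was run, and passage cannot be told apart from anything else that differed between the libraries.

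The libraries held between 34981284 and 47604059 counts. The 3 counts used as a detection limit came to between 0.0659 and 0.0837 CPM, which is the count scaled to library size, and each of the 10 genes lay far above it in every library. Sox2, a dermal papilla transcription factor, was higher in DPCs, with 1677 and 1491 counts at passages 3 and 9 against 269 and 178 in DSCs. Of the other papilla markers, Lef1 had 508 counts in DPCs at passage 3 and 2 at passage 9, and Corin and Lepr had at most 18 counts in any library. Ncam1 was lower in DPCs, with 3642 and 1673 counts against 11755 and 15584 in DSCs, Vcan had 4134 and 3447 against 5272 and 2913, and Alpl had 6 to 23 counts in each library. The smooth muscle actin gene Acta2, the usual sheath marker, was not restricted to DSCs, with 262118 and 67135 counts in DPCs against 217199 and 197315 in DSCs. Of the other sheath markers, Tagln had 69654 and 21597 counts in DPCs against 60254 and 65077 in DSCs. Myh11 had 2882 and 168 against 1063 and 3160, and Cnn1 5576 and 1683 against 3353 and 8001. Itga8 was higher in DPCs, with 6837 and 34714 against 1674 and 23287. The labels are therefore used as names only. Of 6 keratinocyte markers, 4 had no count in any library and Dsp carried nearly all of the rest, so that the list summed to between 0.272 and 50.7 CPM. The 5 immune markers summed to between 59.3 and 149 CPM and were lower at passage 9 in both cell types. The 6 fibroblast markers summed to 26547 and 9429 CPM in DPCs at passages 3 and 9 and to 45436 and 37898 in DSCs. Among them, 1 was higher at passage 9 in each cell type, Pdgfra. The 4 skeletal muscle markers, nearly all Acta1, summed to 40.7 and 0.362 CPM in DPCs and 48.6 and 24.1 in DSCs. The part of these markers in the results was not tested.

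Small nucleolar RNAs (snoRNAs) guide the chemical modification of ribosomal RNA, and most of them in mammals are cut out of the introns of longer transcripts. In the hosts studied here the spliced exons encode no conserved protein, and several of these spliced RNAs, that of Gas5 among them, are short-lived because ribosomes engage them and nonsense-mediated decay removes them. Many hosts start with a run of pyrimidines, the 5′ terminal oligopyrimidine (TOP) tract, which links a transcript's translation to cell growth. Malat1 RNA gathers at nuclear speckles, where splicing factors are stored, whereas Neat1 RNA builds the scaffold of paraspeckles, nuclear bodies that hold RNA-binding proteins such as Nono and Sfpq.

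The start-site sequences are shown because the pyrimidine run is the feature by which growth-regulated hosts are usually recognised. RefSeq start-site windows (GRCm38.p6) were matched for 8 of the 10 genes, all but Neat1 and Snhg6, and Gas5 had 2 entries. Each line gives 15 bases before the annotated start and 40 from it on, read on the transcribed strand. Capitals mark a TOP-like run, defined as a C lying from 5 bases before to 5 bases after the start and followed directly by at least 4 more C or T.
Gas5, chr1:161035151-161035205, plus strand: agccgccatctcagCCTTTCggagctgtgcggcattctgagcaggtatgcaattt
Snhg12, chr4:132308663-132308717, plus strand: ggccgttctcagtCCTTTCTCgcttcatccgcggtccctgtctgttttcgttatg
Snhg8, chr3:123508297-123508351, minus strand: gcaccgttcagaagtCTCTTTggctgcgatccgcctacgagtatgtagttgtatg
Snhg3, chr4:132353647-132353701, minus strand: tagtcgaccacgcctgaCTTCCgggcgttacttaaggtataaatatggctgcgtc
Snhg5, chr9:88522858-88522912, minus strand: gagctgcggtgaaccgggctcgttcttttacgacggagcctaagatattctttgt
Malat1, chr19:5802633-5802687, minus strand: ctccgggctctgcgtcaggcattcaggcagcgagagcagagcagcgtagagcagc

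A run was present in 4 of the 8 matched genes, namely Gas5 (1 of its 2 entries), Snhg3, Snhg8 and Snhg12. In all 32851 windows the share with such a run was 18.3%. No run met the definition in Snhg1, Snhg5, Snhg15 or Malat1, which says only that none begins close enough to the RefSeq start used. The Snhg5 line does hold a C followed by 4 T, further from the start than the definition allows. The runs, as defined, did not separate the hosts by their change with passage. Snhg12 and Gas5, the host with the largest and one with a small change in DPCs, both carried one. Whether Snhg5 carries one depends on the start used.

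The 3′ ends of Malat1 and of the long Neat1 transcript carry an element that replaces a poly(A) tail, in which a U-rich stretch folds onto a genomically encoded A-rich stretch as a triple helix. It is shown because both RNAs were counted in libraries made with poly-T beads. The stretches come from GENCODE M21 transcripts (GRCm38, minus strand), and capitals mark TTTTGCTTTT and AAAAAGCAAAA, searched on the sense strand within 60 bases of each other.
Malat1-201, chr19:5795977-5796037: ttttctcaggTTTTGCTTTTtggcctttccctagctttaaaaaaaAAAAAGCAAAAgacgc
Neat1-201, chr19:5824708-5824770: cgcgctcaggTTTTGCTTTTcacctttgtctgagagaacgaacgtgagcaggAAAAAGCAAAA
The short Neat1-202 ends in an ordinary polyadenylation signal, AATAAA, in capitals here.
Neat1-202, chr19:5842307-5842346: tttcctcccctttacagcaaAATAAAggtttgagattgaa
The pair of letter runs occurred in 4 of 141767 transcripts (0.00282%), and these belonged to 3 genes, Malat1, Neat1 and Retreg3.

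Neat1 rose with passage in both cell types, and Malat1 rose in DPCs. Malat1 (chr19:5795690-5802672, minus strand) had 36678 counts in DPCs at passage 3 and 110320 at passage 9, and 59126 and 127362 in DSCs. On the CPM scale, scaled by trimmed mean of M values (TMM), these were 997, 3076, 1560.2 and 2797. Both passage 9 libraries lay above both passage 3 libraries. The share of all genes with such an order was not counted, and the cell types are not replicates of a passage. By raw count Malat1 moved from rank 94 to rank 21 of all genes in DPCs and from 59 to 31 in DSCs. The change was 1.62 on the log2 scale in DPCs, with a 95% counting interval of 1.61 to 1.64, a 3.08-fold rise. In DSCs it was 0.84 (0.83 to 0.86), which at 1.79-fold fell short of the 2-fold threshold used for calls. The intervals cover counting error only and compare 2 libraries rather than 2 conditions.

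Neat1 (chr19:5824708-5845478, minus strand) had 3718 counts in DPCs at passage 3 and 17837 at passage 9, and 5522 and 16938 in DSCs. The TMM-scaled levels were 101, 497, 146 and 372 CPM. As for Malat1, the passage 9 libraries were the higher in each cell type and the passage 3 libraries did not reach them. The rise was 2.30 on the log2 scale in DPCs (2.25 to 2.35), or 4.92-fold, and 1.35 in DSCs (1.31 to 1.40), or 2.55-fold. Of all genes tested, 4.21% were at least as far up in DPCs and 5.57% in DSCs. For Malat1 the same shares were 8.15% and 10.9%.

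In DPCs, 16.1% of the tested genes rose at least 2-fold and 5.58% at least 4-fold, and 2 and 1 of the 10 genes did so. The 4-fold call of Neat1 was lost when FPKM values were used, where its change came to as little as 1.90. In DSCs, 8.55% rose 2-fold, as did 1 of the 10, Neat1, and 2.67% rose 4-fold, as did 0. Falls of 4-fold were found in 4.36% of the tested genes in DPCs and 1.16% in DSCs, and in 0 of the 10. A rise of 2-fold in both cell types was seen in 4.86% of all genes and, among the 10, in Neat1 alone, and a fall of 2-fold in both in 3.54% of all genes and in 0 of the 10. The gene-wide shares show that rises of this size were common in these libraries, above all in DPCs.

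**Figure D1:**
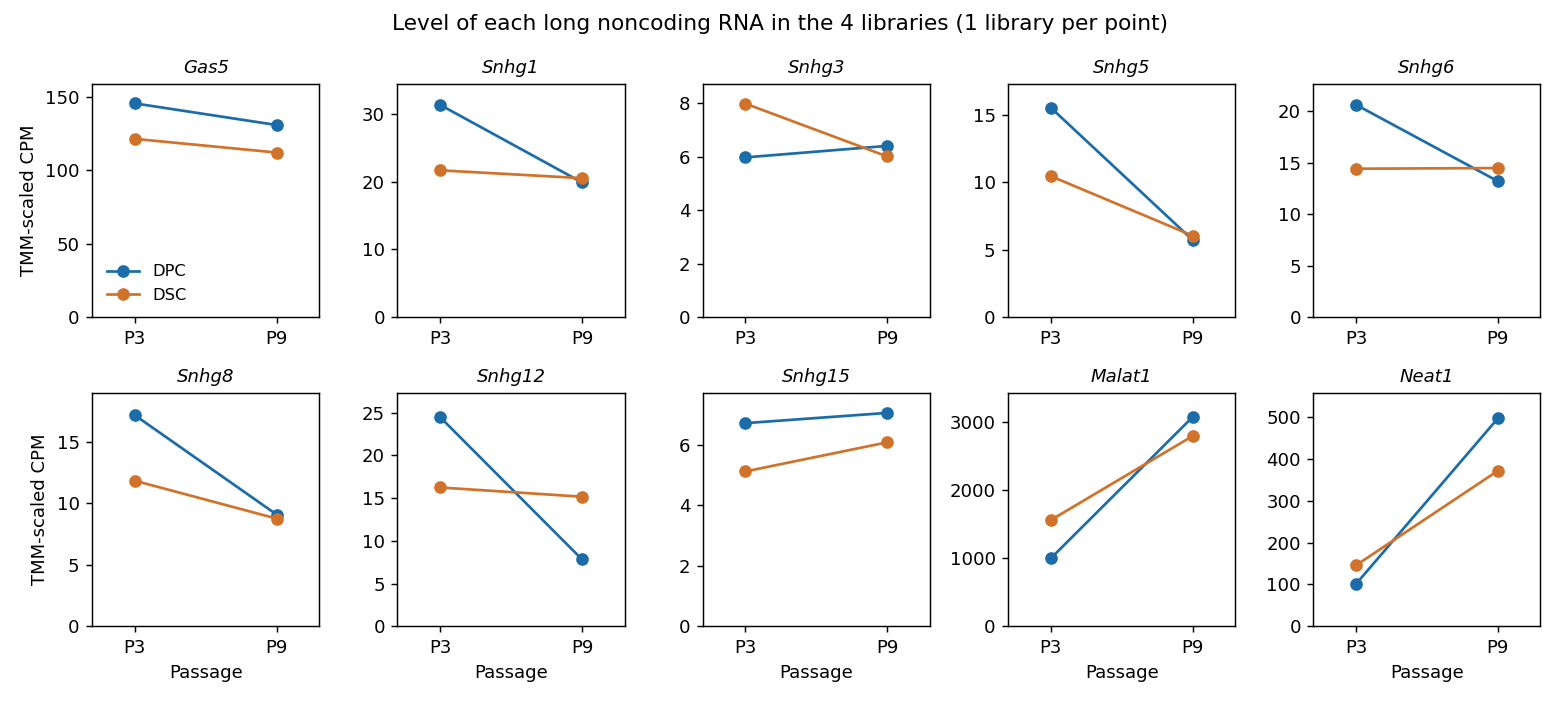
Level of each of the 10 genes in the 4 libraries, in TMM-scaled CPM against passage, with 1 panel per gene, an axis from 0 in each, and 1 point per library without replicates. The lines of both cell types climb for Malat1 and Neat1, from 997 to 3076 CPM and from 101 to 497 CPM in DPCs, and descend in both for Gas5, Snhg1, Snhg5, Snhg8 and Snhg12.

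Together Malat1 and Neat1 summed to 1098 CPM in DPCs at passage 3 and 3574 at passage 9, and to 1706 and 3168 in DSCs. Annotated long noncoding RNA genes took 0.641% of the counts in DPCs at passage 3 and 0.930% at passage 9, and 0.693% and 0.836% in DSCs. Without Malat1 and Neat1 those shares were 0.526%, 0.563%, 0.527% and 0.533%. The share of the remaining long noncoding genes was thus nearly level, and most of the difference in the total was these 2 genes. The share of counts from mitochondrial genes also differed, at 4.27% and 7.88% in DPCs and 4.91% and 5.65% in DSCs, and its part in the results was not tested. In bulk libraries such as these, a change in RNA per cell and a change in the mix of cells cannot be told apart.

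The ratio of Malat1 to Gas5 counts needs no scaling between libraries. It was 6.85 in DPCs at passage 3 and 23.5 at passage 9, and 12.9 and 24.9 in DSCs. The ratio of Neat1 to Gas5 counts went from 0.695 to 3.80 in DPCs and from 1.20 to 3.32 in DSCs. Malat1 exceeded Neat1 by 9.86 times in DPCs at passage 3 but by 6.18 times at passage 9, and by 10.7 and 7.52 times in DSCs, so Neat1 moved the further of the pair in both cell types. These are ratios of raw counts and take no account of length.

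Per length, the order was different. By the deposited FPKM values (fragments scaled by gene length and by library size), Gas5 was the highest of the 10 genes in DPCs at passage 3, at 210.02 against 141 for Malat1. In the other 3 libraries Malat1 was the highest, at 421 FPKM in DPCs at passage 9, 204 in DSCs at passage 3 and 354 in DSCs at passage 9, while Gas5 had 197, 167 and 160.1. Neat1 had 11.5, 45.7, 13.5 and 32.3 FPKM, and its rank among all genes went from 5601 to 1385 in DPCs and from 4728 to 1962 in DSCs. The counts and FPKM values of Neat1 together imply lengths of 9139.7 to 11151 bases, between the 20771 bases of the long Neat1-201 and the 3004 of Neat1-202. A count per gene does not separate these isoforms, of which the long one carries the paraspeckle scaffold.

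Several annotated genes lie within these loci. Gm27505, a 110-base segment near the start of Neat1 on the same strand, had 239 counts in DPCs at passage 3 and 1098 at passage 9, and 335 and 1202 in DSCs. Its changes were 2.23 and 1.57 on the log2 scale. The segment is shared by long and short Neat1 transcripts, so its reads are not independent of the Neat1 row if reads were counted for both.

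None of the 8 snoRNA hosts rose 2-fold in either cell type. Gas5 (chr1:161034422-161038539, plus strand), named for its accumulation in growth-arrested cells, was by far the most abundant host, with 5353 counts in DPCs at passage 3, 4692 at passage 9, and 4601 and 5105 in DSCs. The levels were 146, 131, 121 and 112 CPM, the narrowest range of the 10 genes. The differences with passage were -0.15 on the log2 scale in DPCs (-0.21 to -0.10) and -0.12 in DSCs (-0.17 to -0.06). Zbtb37 overlaps an exon of Gas5 on the opposite strand and had 875 and 1175 counts in DPCs and 980 and 1246 in DSCs, and without a stated use of strand, reads in the overlap cannot be told apart. Differences of the size seen for Gas5 or further down were found in 41.8% of all tested genes in DPCs and 40.1% in DSCs.

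Snhg12 and Snhg5 fell in DPCs. Snhg12 (chr4:132308678-132311024, plus strand) hosts snoRNAs that include Snora44, Snora61 and Snord99. It had 901 counts in DPCs at passage 3 and 281 at passage 9, but 616 and 691 in DSCs. The levels were 24.5 and 7.84 CPM in DPCs and 16.3 and 15.2 CPM in DSCs, so that a single library, DPCs at passage 9, lay below the rest. The fall in DPCs was -1.64 (-1.84 to -1.45), or 3.11-fold, and the difference in DSCs was -0.10 (-0.26 to 0.06). A fall as large was found in 6.67% of the tested genes in DPCs.

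Snhg5 (chr9:88521050-88522929, minus strand) is the host of the paired C/D box snoRNAs Snord50a and Snord50b. Their GENCODE M21 sequences are shown because they illustrate what the host carries and why reads from the copies can hardly be kept apart. Capitals mark a C box TGATGA and a D box CTGA.
Snord50a-201, chr9:88521529-88521600, minus strand: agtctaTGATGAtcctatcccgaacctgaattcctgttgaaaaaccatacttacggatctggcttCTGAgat
Snord50b-201, chr9:88521797-88521868, minus strand: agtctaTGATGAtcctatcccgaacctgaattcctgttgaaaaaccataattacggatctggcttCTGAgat
The 2 sequences of 72 bases differ by 1 substitution, C50A, written from Snord50a to Snord50b and counted from 1 at the 5′ end. Snhg5 itself had 571 counts in DPCs at passage 3 and 205 at passage 9, and 396 and 275 in DSCs. In CPM this was 15.5 and 5.72 in DPCs and 10.4 and 6.04 in DSCs. Both passage 9 libraries lay below both passage 3 libraries, an order whose share over all genes was not counted. The difference in DSCs was the largest among the hosts. It fell by 1.43 on the log2 scale in DPCs, with an interval of -1.68 to -1.21, or 2.70-fold. The difference of -0.79 in DSCs (-1.02 to -0.57) did not reach 2-fold. At least as large a difference downward was found in 8.66% of the tested genes in DPCs and in 9.25% in DSCs.

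Snhg8, Snhg1 and Snhg6 were lower in DPCs at passage 9 by less than 2-fold. Snhg8 (chr3:123507552-123508404, minus strand), the host of Snora24, had 632 and 326 counts in DPCs and 449 and 399 in DSCs, or 17.2, 9.09, 11.8 and 8.76 CPM. Its differences were -0.91 (-1.12 to -0.72) in DPCs and -0.43 (-0.63 to -0.24) in DSCs. Both passage 9 libraries lay below both passage 3 libraries, as for Snhg5.

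Snhg1 (chr19:8723475-8726443, plus strand), which holds 8 annotated snoRNA genes, had 1152 and 713 counts in DPCs and 821 and 934 in DSCs. At 31.3 CPM, DPCs at passage 3 stood above the other 3 libraries, which lay at 19.9, 21.7 and 20.5 CPM. The passage difference was -0.65 in DPCs (-0.79 to -0.52) and -0.08 in DSCs (-0.22 to 0.06). Snhg6 (chr1:9941959-9944118, minus strand), the host of Snord87, showed the same layout, with 758 and 473 counts in DPCs and 546 and 659 in DSCs. Its levels were 20.6 CPM in DPCs at passage 3 and 13.2, 14.4 and 14.5 CPM in the other libraries. The differences were -0.64 (-0.81 to -0.48) and 0.01 (-0.16 to 0.17).

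Snhg3 and Snhg15 did not differ with passage in DPCs beyond counting error. Snhg3 (chr4:132348014-132353686, minus strand), which hosts the H/ACA snoRNAs Snora73a and Snora73b, had 220 and 230 counts in DPCs and 303 and 274 in DSCs. The differences were 0.10 (-0.17 to 0.37) in DPCs and -0.41 (-0.65 to -0.17) in DSCs. Snhg3 overlaps Rcc1, the nucleotide exchange factor of the Ran GTPase, on the same strand, and Rcc1 fell. It had 1270 counts at passage 3 and 383 at passage 9 of DPCs, and 1273 and 727 in DSCs, with log2 changes of -1.69 and -1.07. The Rcc1 counts did not move like those of Snhg3, and how reads in their shared exons were assigned was not given in the sources used here. Gm17300, a long noncoding RNA gene inside Snhg3 on the opposite strand, also overlaps its exons. It had 247 and 110 counts in DPCs and 205 and 162 in DSCs, with log2 changes of -1.12 and -0.60. Without a stated use of strand, reads in that overlap cannot be told apart. Snhg15 (chr11:6525591-6528760, minus strand), the host of Snora9, had 247 and 253 counts in DPCs and 194 and 277 in DSCs, with differences of 0.07 (-0.19 to 0.33) and 0.25 (-0.02 to 0.52).

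**Figure D2:**
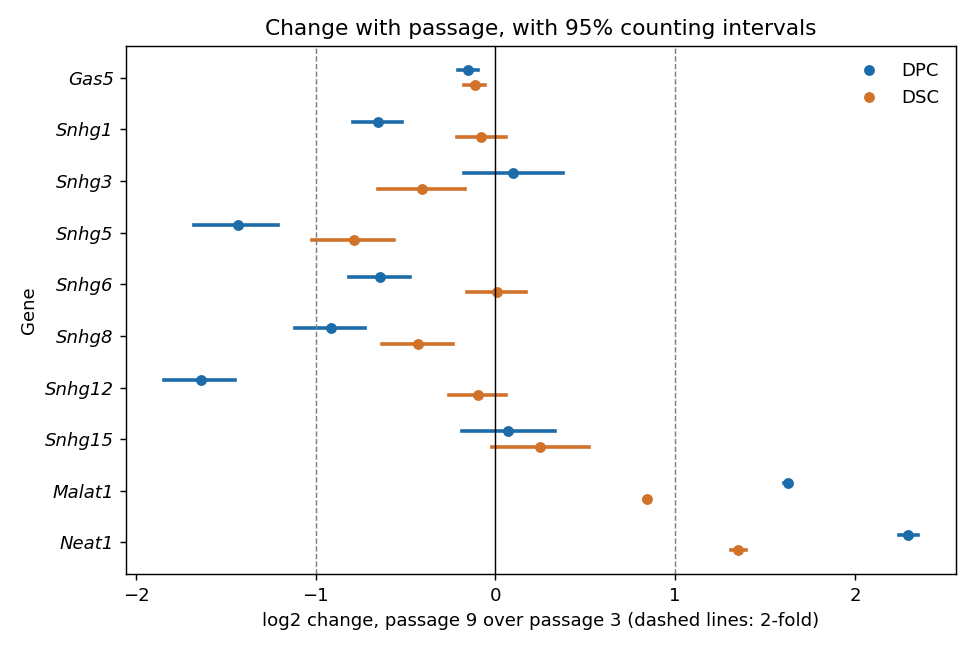
Log2 change from passage 3 to passage 9 of each gene in DPCs and DSCs, with 95% counting intervals that cover counting error only. Malat1 and Neat1 lie to the right in both cell types, and Snhg5 and Snhg12 lie beyond the 2-fold line on the left in DPCs and not in DSCs.

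Of the 8 hosts, 0 rose and 2 fell 2-fold in DPCs, where 15.0% of all tested genes fell that far. In DSCs 0 of 8 fell, against 6.21% of all genes. Counting intervals lay below 0 for 6 of the 8 hosts in DPCs and for 4 in DSCs, and they included 0 for the rest. The share of all tested genes with such intervals was not counted. The median host change was -0.65 in DPCs and -0.11 in DSCs, beside 0.03 and 0.00 over all tested genes. Summed over the 8 hosts, the level was 267 CPM in DPCs at passage 3 and 200.01 at passage 9, and 209 and 189 CPM in DSCs. Without Gas5 the sums were 122, 69.2, 87.7 and 77.0 CPM. Gas5 thus made up a larger part of the host counts in DPCs at passage 9, 65.4%, than in the other libraries, where it was 54.4%, 58.0% and 59.3%.

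Over all 10 genes, the sign of the change was shared by the cell types in 8. Malat1, Neat1 and Snhg15 lay above 0 in both, against 36.0% of all tested genes, and Gas5, Snhg1, Snhg5, Snhg8 and Snhg12 lay below 0 in both, against 34.4%. Snhg3 and Snhg6 had opposite signs, each with an interval that included 0 in one cell type. Among the genes with a shared sign, the interval included 0 in both cell types for Snhg15 and in DSCs for Snhg1 and Snhg12. In 8 of the 10 genes the change was further from 0 in DPCs than in DSCs, and the exceptions were Snhg3 and Snhg15. Over all tested genes, too, 2-fold changes were more frequent in DPCs (16.1% up and 15.0% down) than in DSCs (8.55% and 6.21%).

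**Figure D3:**
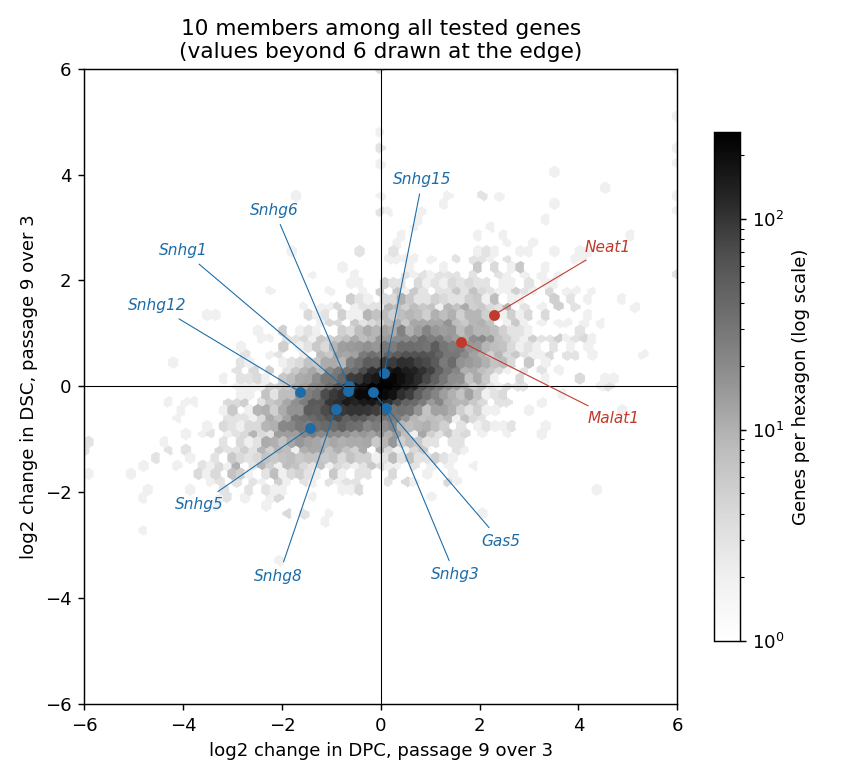
Log2 change with passage in DPCs (horizontal) and DSCs (vertical) for all 16734 tested genes as shaded hexagons, with the 10 genes as labelled points. Most hosts lie within the dense centre of the cloud and toward its lower left, while Malat1 and Neat1 lie along its upper right arm.

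At passage 3, 7 of the 8 hosts were higher in DPCs than in DSCs, and Malat1, Neat1 and Snhg3 were lower. No difference reached 2-fold, a size at which 5.43% of all tested genes were higher and 7.86% lower in DPCs. The largest were 0.59 for Snhg12 (0.44 to 0.74), 0.57 for Snhg5 and, on the other side, -0.65 for Malat1 and -0.53 for Neat1. This order depends on the processing: over the alternatives Neat1 came as near 0 as -0.21, and Snhg1, at 0.53 here, reached 0.74. All 10 intervals excluded 0, and the share of all tested genes for which this holds was not counted. The host median was 0.52, beside 0.00 over all tested genes.

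At passage 9 the cell types were closer for most of the hosts. The host median was 0.00, beside -0.01 over all genes, and 6 of the 10 intervals included 0. Snhg12 was the exception among hosts, at -0.95 (-1.16 to -0.75), lower in DPCs, and Gas5 was still higher in DPCs by 0.22. Malat1 and Neat1 were now higher in DPCs, by 0.14 and 0.42. Again no difference reached 2-fold, against 9.11% of tested genes higher and 11.0% lower. These comparisons use the same libraries as the passage comparisons, so a difference in 1 library enters both.

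**Figure D4:**
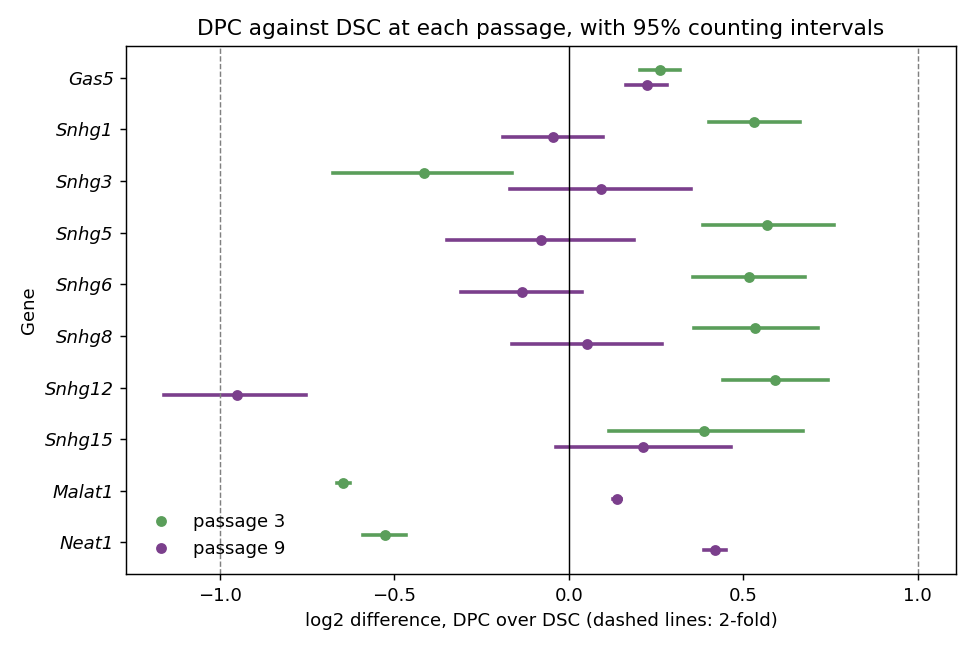
Log2 difference of DPCs over DSCs for each gene at passage 3 and at passage 9, with 95% counting intervals; dashed lines mark 2-fold. At passage 3 the hosts other than Snhg3 lie to the right and Malat1 and Neat1 to the left, and at passage 9 Snhg12 lies farthest from 0 at -0.95.

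The snoRNAs themselves were hardly visible in these libraries. The 8 hosts contain 30 annotated snoRNA genes, and their counts summed to 273 and 218 in DPCs and 259 and 278 in DSCs. The highest was Gm22357 within Gas5, with 103, 115, 128 and 130 counts. A count of exactly 1 stood in all 4 libraries for 15 of the 30, and among all genes counted 407 had that pattern, 65 of them among 1507 snoRNA genes. Such rows are not read as measurements here. The host rows therefore describe the spliced or precursor host RNA and carry no information on mature snoRNA levels.

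Other snoRNA host long noncoding RNAs did not share one direction. Of 13 names on this list, Snhg10 and Snhg16 were not matched, Dancr matched 2 rows, and Snhg7 and Snhg9 were under the filter. Of the 10 rows tested, 2 rose 2-fold in DPCs, Snhg11 and Snhg14, and 2 in DSCs, Snhg11 and the sparser of 2 Dancr rows. That is 20.0% in each, against 16.1% of all tested genes in DPCs and 8.55% in DSCs. In either cell type 0 fell, against 15.0% and 6.21%. Snhg11, a host known mainly from neurons, had 33 and 267 counts in DPCs and 150 and 732 in DSCs, changes of 2.98 and 2.01. Snhg14, the host that spans the imprinted Prader-Willi region, had changes of 1.21 and 0.49. The lowest were those of Snhg4, at -0.55 in DPCs and -0.76 in DSCs. Zfas1, a host of C/D box snoRNAs, had -0.49 and 0.24, Epb41l4aos -0.17 and 0.46, and Snhg18 0.35 and 0.23. Snhg17 was near level at 0.07 and -0.04, as was Snhg20 at -0.11 and -0.15. The main Dancr row had -0.10 and -0.43, and the sparse one had 3, 4, 3 and 35 counts. The sparse row passed the filter only through DSCs at passage 9, where it is high, so its rise is not read as a result. The list medians were -0.01 and 0.23, and the first turned its sign under 1 of the 10 other settings. The second includes the sparse Dancr row and ranged from 0.09 to 0.24 over these settings.

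Protein-coding snoRNA hosts, mostly genes of ribosomal proteins and translation factors, were lower at passage 9. Of 37, 12 fell 2-fold in DPCs, or 32.4% against 15.0% of all tested genes, and 0 in DSCs, against 6.21%. In both cell types 0 rose, against 16.1% and 8.55%, and 35 were below 0 in each. The medians were -0.77 and -0.34, both further down than the long noncoding hosts. In DPCs and DSCs, respectively, the change was -1.44 and -0.64 for Rps2, which encodes a protein of the small ribosomal subunit, whereas the initiation factor gene Eif4a2 was at 0.08 and 0.50. The TOP-like run was present in 8 of their 28 matched windows, or 28.6%, against 18.3% of all windows. The call depends on the annotated start, so a window without a run does not show that a gene lacks a TOP tract.

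For the genes of proteins that bind snoRNAs and assemble their particles, the medians were -0.47 (DPCs) and -0.38 (DSCs). In DPCs 3 of 15 fell, or 20.0% against 15.0% of all tested genes, among them Nhp2 (-1.22), of the H/ACA core, and Fbl (-1.13), the C/D box methyltransferase, and 0 did in DSCs. The assembly factor gene Znhit6 had the largest difference upward, at 0.94 and 0.52. Nonsense-mediated decay factors had medians of 0.07 and -0.17. In DPCs 2 of 14 rose, or 14.3% against 16.1% of all tested genes, namely the bridging factor gene Upf2 (1.09) and the endonuclease gene Smg6 (1.04). Magoh (-1.56), of the exon junction complex, fell. None was called in DSCs, where those 3 had 0.35, 0.26 and -0.51.

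Paraspeckle protein genes did not rise as a group beside Neat1. The list medians were -0.24 in DPCs and -0.35 in DSCs. In each, 1 of 10 rose, or 10.0%, against 16.1% and 8.55% of all tested genes. Nono, an essential paraspeckle component, had changes of -0.07 and -0.35, and its partner Sfpq had -0.41 and -0.53. Pspc1, the third protein of that family, was at 0.48 in DPCs and rose by 1.16 in DSCs, while Hnrnph3 rose by 2.19 in DPCs and was at 0.39 in DSCs. Nuclear speckle protein genes had medians of -0.18 and -0.14. Of 14, 2 rose in DPCs, or 14.3% against 16.1% of all tested genes, namely Acin1 (1.16) and Srsf11 (1.01). In DSCs 0 rose, against 8.55%, and these had -0.10 and 0.30.

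Among other long noncoding RNAs of the nucleus none rose 2-fold. Of 8 tested, 0 were called in DPCs and 2 fell in DSCs, the imprinted neighbours Meg3 (-1.11) and Rian (-1.07). Firre, which anchors chromosomal loci in the nucleus, had 0.32 in DPCs and 0.38 in DSCs, and Kcnq1ot1, the antisense RNA of an imprinted cluster, had 0.26 and 0.23. The medians were 0.22 and -0.54, and the first turned its sign under 2 settings. Of all 1311 annotated long noncoding RNA genes tested, 370 rose (28.2%) and 132 fell (10.1%) 2-fold in DPCs, with a median of 0.44. In DSCs 187 rose (14.3%) and 99 fell (7.55%), with a median of 0.16. Over all tested genes the shares were 16.1% and 15.0% in DPCs and 8.55% and 6.21% in DSCs. The set of 1311 genes was drawn up after its values were seen.

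Cell cycle genes differed strongly between the same libraries. Of 12 proliferation genes, 11 fell 2-fold in DPCs (91.7% against 15.0% of all tested genes) and 8 in DSCs (66.7% against 6.21%). The medians were -2.42 and -1.28, and Ccna2 and Ccnb1 were the furthest down at -3.24 and -3.45 in DPCs. Their part in the values of the host genes was not tested.

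**Figure D5:**
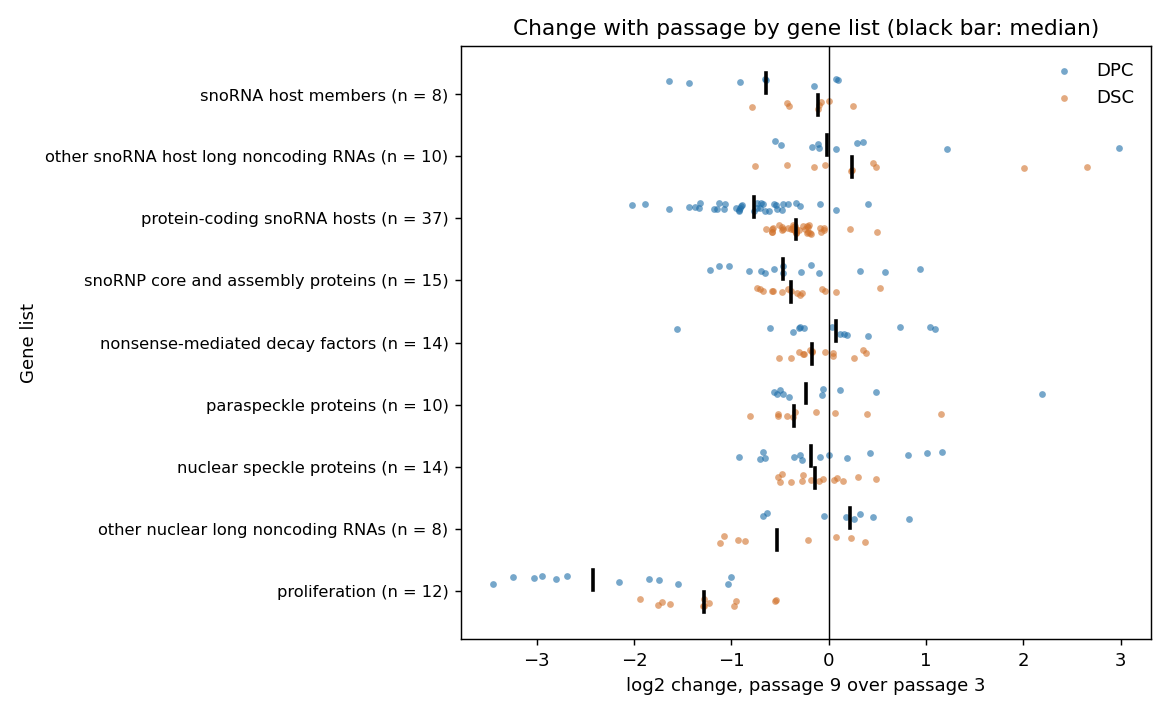
Log2 change with passage of every tested gene in each list, in DPCs and DSCs, with a bar at the list median. The proliferation genes lie furthest below 0, with medians of -2.42 and -1.28, and the long noncoding hosts of the opening, in the top row, have medians of -0.65 and -0.11.

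The genes whose levels over the 4 libraries were most like those of Gas5, Malat1 and Neat1 were found among 12192 genes with a mean count of at least 100, by the Euclidean distance between centred log2 CPM values. For Gas5 they were Ctdp1 (distance 0.0356), E2f6 and Fam91a1, all with small changes. Malat1 was nearest to Enpp5 (0.103), Irak3 and Mapk1ip1. Nearest to Neat1 was Pkd2 (0.0950), with changes of 2.19 in DPCs and 1.36 in DSCs, then Sbsn and the Neat1 segment Gm27505 (0.175). With 4 libraries, such a likeness is a description of these libraries.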

How the data were processed

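Poly-T selected RNA of 4 libraries, 1 for each cell type and passage, was sequenced by the authors on an Illumina instrument. The authors deposited raw counts per gene for all libraries in 1 table, and FPKM values with gene positions for each library. The submitters' processing notes name Bowtie 0.12.2 and the builds mm8 and mm9, with no role given. The labels and the study's methods name different library kits. The counting program, annotation and use of strand are not given in the sources used here. Gene positions of 51826 genes were compared with GENCODE M21 (GRCm38): 51633 identifiers were found, and 94.1% of those found had identical positions.

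Counts were scaled by TMM in edgeR 4.0.16 (R 4.3.3), and log2 CPM values with a prior count of 2 were subtracted for genes averaging 10 or more raw counts. A change was called at 2-fold or 4-fold. Since each group is 1 library, no model was tested and no p-value is given. Counting intervals are 95% Clopper-Pearson intervals (SciPy 1.17.1, Python 3.11.15). They treat reads as independent, and both mates of a pair may have been counted, so halved counts were tried as well. The other alternatives were total counts, DESeq2 1.42.0 size factors, upper-quartile scaling, prior counts of 0.5 and 10, no filter, a minimum mean count of 100, and FPKM with a pseudocount of 0.1 or 1.

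The scaling and subtraction were tested on simulated data. The members and lists were chosen with earlier results of these data known. All members are named. From each other list up to 2 genes with the largest rise and up to 2 with the largest fall shared by both cell types were chosen, some others (such as Nono, Sfpq, Smg6, Acin1 and Meg3) were named after their values were seen, and every tested host on the list of other long noncoding hosts is given. Genes overlapping a member or starting within 5 kb of it were also examined.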

Additional observations from a re-analysis of the deposited data

Results flagged for a closer look

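For 7 of the 10 genes, either the passage differences had opposite signs in DPCs and DSCs or the difference between the cell types had opposite signs at passages 3 and 9. The difference between the passage changes, DPCs minus DSCs, on the log2 scale was -1.54 for Snhg12, where 12.3% of all tested genes differed at least as much in either direction. It was 0.95 for Neat1 (25.9% of genes) and 0.78 for Malat1 (32.7%). For Snhg5 and Snhg6 it was -0.65 each, for Snhg1 -0.58 and for Snhg3 0.51, sizes that 40.1% or more of the genes reached. With 1 library per group these differences were not tested, and 1 library that stands apart would enter each of them.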

How the results depend on the processing

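Of 40 changes, the 10 genes in 4 comparisons, 36 kept their sign under all 10 alternatives and 0 crossed the 2-fold threshold. The 4 that turned were near 0: Snhg3 in DPCs (-0.09 to 0.13), Snhg6 in DSCs (-0.08 to 0.01), and Snhg1 (-0.07 to 0.12) and Snhg5 (-0.10 to 0.09) between the cell types at passage 9. The count of genes called at 4-fold in DPCs was 1, Neat1, but 0 with FPKM and a pseudocount of 0.1 and 0 with FPKM and a pseudocount of 1; Neat1 ranged from 1.90 to 2.33 over the alternatives. The cause was not tested. Of the list medians, whose alternatives were chosen after seeing the data, those of the other noncoding hosts (-0.14 to 0.02) and of the other nuclear RNAs (-0.06 to 0.29) in DPCs turned their sign. The median of the 8 hosts between the cell types at passage 9 ranged from -0.02 to 0.11. FPKM with a pseudocount of 0.1 moved the median of all genes between the cell types at passage 9 by 0.10 on the log2 scale. No paired analysis was run because each group is 1 library without a replicate number in the labels, and the cell types were not taken as replicates of a passage. With 1 library per group no replicate could be left out. Spread between cultures is therefore unknown, and low counts limit Snhg3, Snhg5 and Snhg15, which had 220, 205 and 194 counts in their lowest libraries.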
